A study of Mus musculus with 4 samples.

Results

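Caspases and their inflammasome partners were read in regulatory T cells (Treg) from mouse spleen. These CD4+ cells, marked by the transcription factor Foxp3, restrain immune responses. The genes were chosen by name, with earlier results of these data known. They were Casp1, Casp4, Pycard and Gsdmd of the inflammasome arm, and Casp8, Casp9, Casp2 and Casp6 of the apoptotic arm. All 8 were found among the 38924 gene identifiers of the count table, and all 8 passed the filter on low counts. The study sequenced RNA from 2 samples of activated Treg (aTreg) and 2 samples of resting Treg (rTreg), described as coming from independent animals. Both labels print the same surface gate, on CD4+Foxp3+ cells low for CD44, and the sources used here do not give strain, age, genotype or any treatment. Graded activity of Foxo1, a transcription factor of quiescent T cells, is named in the series title, and the design text compares the transcriptomes of the 2 populations. The count table names the group of each library but not its replicate number, so the libraries are called activated A and B and resting A and B. Paired values below are in the order A, B. The letters follow column order and were not used as pairs across the groups.

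Caspases are cysteine proteases that cut after aspartate. In the inflammasome arm, a sensor protein and the adaptor ASC, encoded by Pycard, assemble a platform that activates caspase-1, which matures interleukin-1β and interleukin-18 and cuts gasdermin D, encoded by Gsdmd, into a membrane pore. Mouse Casp4 encodes the protein often called caspase-11, which senses bacterial lipopolysaccharide in the cytosol and also cuts gasdermin D. In the apoptotic arm, caspase-8 acts below death receptors such as Fas and also restrains necroptosis, caspase-9 acts on the apoptosome, caspase-2 on a complex called the PIDDosome, and caspase-6 is counted among the executioner caspases. T cells need caspase-8 to survive after stimulation.

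Casp1 and Casp4 are direct neighbours on chromosome 9. Casp1 lies at 5298517 to 5307265 and Casp4 at 5308828 to 5336783, both on the plus strand (mm10, GENCODE M21), with 1562 bases between them. Casp8 lies on chromosome 1 at 58795374 to 58847503, also on the plus strand, 36489 bases from Cflar, which encodes its inactive relative and regulator c-FLIP. The sequences upstream of the RefSeq start (GRCm38.p6) are shown for these 3 genes because their values differed most between activated and resting Treg. They run 5′ to 3′ on the plus strand in lower case, and capitals mark the motif matches described beneath. Casp1 covers chr9:5298267-5298516, Casp4 chr9:5308599-5308827 and Casp8 chr1:58802252-58802501. The Casp4 stretch ends where an annotated exon begins, and the Casp8 start used by RefSeq lies inside the span that GENCODE gives the gene.
Casp1: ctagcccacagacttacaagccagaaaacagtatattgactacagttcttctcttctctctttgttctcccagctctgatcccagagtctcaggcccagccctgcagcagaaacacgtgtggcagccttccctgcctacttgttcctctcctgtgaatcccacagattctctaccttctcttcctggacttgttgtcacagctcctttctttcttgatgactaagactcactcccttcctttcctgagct
Casp4: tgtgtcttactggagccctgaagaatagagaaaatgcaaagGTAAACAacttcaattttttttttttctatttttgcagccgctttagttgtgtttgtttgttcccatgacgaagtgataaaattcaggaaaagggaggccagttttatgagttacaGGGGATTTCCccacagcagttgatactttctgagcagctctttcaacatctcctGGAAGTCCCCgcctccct
Casp8: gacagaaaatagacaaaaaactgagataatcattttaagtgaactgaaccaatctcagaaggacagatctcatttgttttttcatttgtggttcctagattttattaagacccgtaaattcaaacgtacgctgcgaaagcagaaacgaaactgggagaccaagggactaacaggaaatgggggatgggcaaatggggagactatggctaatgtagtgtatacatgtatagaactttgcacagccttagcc

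Promoter sequences were found for 7 of the 8 genes, Gsdmd being the one without an entry. The 250 bases before each start were searched on both strands for 4 motifs: a Foxo core (GTAAACA), an NF-kB-like pattern (GGG, 3 free bases, then TTCC), an interferon response pattern (GAAA, 2 free bases, then GAAA) and a STAT pattern (TTCNNNGAA). Over all 32851 promoters of the same length, these motifs were present in 3.17%, 4.65%, 2.98% and 7.02%, in that order. The motifs were chosen after the promoters had been looked at, and a match is a description of the letters. Of the 7 genes, Casp4 was the one with a match. It held the Foxo core on the plus strand, starting at position -209, and the NF-kB-like pattern at -93 on the plus strand and at -39 and -14 on the minus strand. The match at -14 falls in the annotated exon and is not printed, and no 2 of these matches overlap. The Casp1 and Casp8 windows held none of the 4 patterns, which says only that these letters do not occur there.

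The libraries held 29332058 and 20282062 counts for activated A and B, and 20699024 and 31851982 for resting A and B. Levels are given as CPM, the counts scaled to a common library size, with TMM (trimmed mean of M values) factors. Cd44, a marker of activated T cells, was at 329 and 335 CPM in activated Treg and at 145 and 213 CPM in resting Treg. Foxp3 was at 37.5 and 36.6 CPM in the activated libraries, close to its resting values (log2 fold change 0.01). Summed Treg markers came to 6059 and 6983 CPM in activated Treg and to 5499 and 6244 CPM in resting Treg. Cd4 was at 1094 and 1244 CPM in activated Treg and at 896 and 966 CPM in resting Treg. Summed markers of conventional dendritic cells came to 220 and 67.2 CPM in the activated libraries, against 14.5 and 11.3 CPM in the resting libraries. All 8 tested markers of this list were higher in both activated libraries, as were 19.8% of all genes tested. Summed markers of plasmacytoid dendritic cells came to 1128 and 418 CPM in the activated libraries, against 185 and 204 CPM in the resting libraries. The conventional dendritic cell markers Clec9a, Batf3 and Clec10a each had 0 counts in 1 resting library. Siglech, a marker of plasmacytoid dendritic cells, had 8548 and 1190 counts in the activated libraries and 16 and 8 in the resting libraries. Monocyte and macrophage markers were high in 1 library of each group, with 700 and 90.4 CPM in the activated libraries and 664 and 28.8 CPM in the resting libraries. B cell markers came to 102 and 123 CPM in activated Treg and to 47.3 and 67.1 CPM in resting Treg. CD8 T cell markers came to 81.7 and 35.7 CPM in activated Treg and to 30.4 and 27.2 CPM in resting Treg. Both markers of that list were higher in both activated libraries, as were the same 19.8% of all genes tested. The sums for the other marker lists stayed at or under 35.7 CPM for NK cells, 21.3 CPM for erythroid cells and 4.12 CPM for neutrophils in every library. In bulk samples such as these, fewer cells of a type and less RNA per cell cannot be told apart.

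Among the 8 genes, Casp1 and Casp4 had higher levels and Casp8 a lower level in activated Treg, while Pycard, Gsdmd, Casp9, Casp2 and Casp6 differed by less. By edgeR's quasi-likelihood test with Benjamini-Hochberg adjustment over all 14235 genes tested, 0 of the 8 passed the threshold of 0.05, as did 0% of all genes. At an unadjusted p under 0.05, 2 of the 8 were higher and 1 was lower, where 8.91% of all genes tested passed in either direction (6.30% higher and 2.61% lower). DESeq2 called 1 of the 8, Casp1, higher, where it called 3.17% of the genes to which it gave an adjusted p (2.32% higher and 0.845% lower), and limma-voom called 0 of the 8. The activated and resting libraries did not overlap in 5 of the 8, with 3 higher and 2 lower, where 37.2% of all genes tested did not overlap (19.8% higher and 17.4% lower). The median log2 fold change was 0.05 over the 8 genes and -0.0072 over all genes tested.

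**Figure D1:**
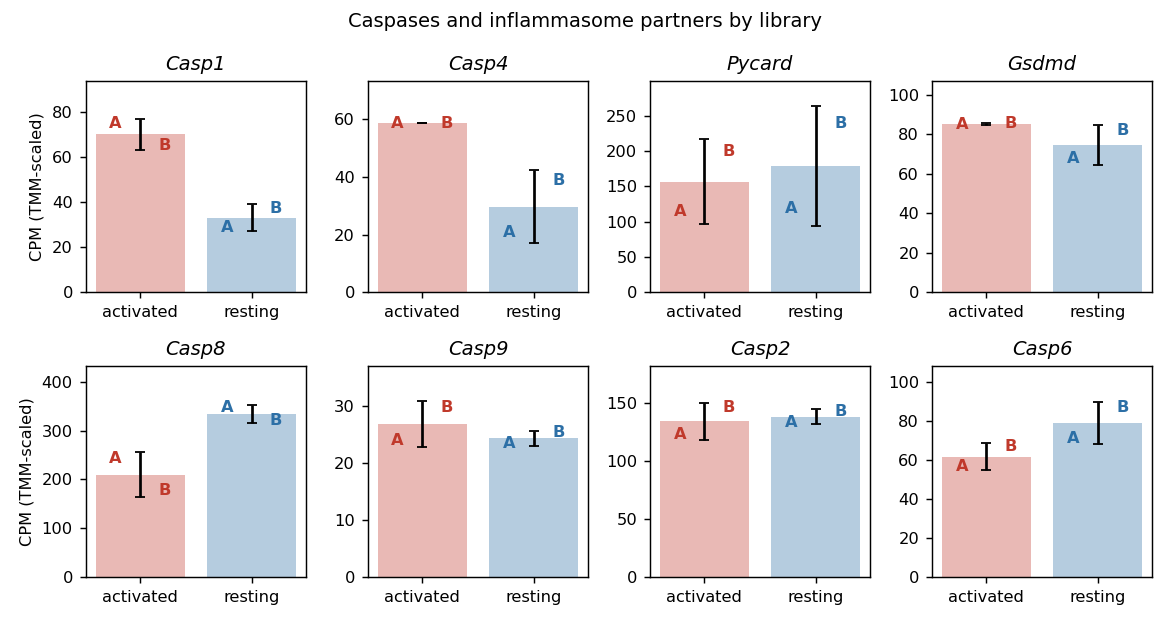
TMM-scaled CPM of each gene in activated Treg (red) and resting Treg (blue). Bars are means, error bars are SD over 2 libraries, and letters mark libraries A and B. Both activated libraries lie above both resting ones for Casp1, Casp4 and Gsdmd and beneath them for Casp8 and Casp6. Pycard is higher in library B than in library A of both groups.

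Casp1, the inflammasome protease, was at 74.9 CPM in activated A and 65.1 CPM in activated B, against 28.9 CPM in resting A and 37.3 CPM in resting B. Both activated libraries were above both resting ones, and the gap between the groups was larger than the spread within either. The group levels were 70.0 ± 6.94 CPM in activated Treg and 33.1 ± 5.97 CPM in resting Treg (SD, n = 2 each), on 2293 and 1321 counts in the activated libraries and 595 and 1145 counts in the resting libraries. The log2 fold change was 1.08 ± 0.22 (SE), a 2.11-fold higher level with a 95% interval of 0.52 to 1.63 on the log2 scale. By edgeR this gave an unadjusted p of 0.00396 and an adjusted p of 0.290. By DESeq2 the adjusted p was 0.0040. On the authors' regularized log2 scale, Casp1 stood at 10.79 and 10.62 in activated replicates 1 and 2 and at 9.55 and 9.90 in resting replicates 1 and 2.

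Casp4, the lipopolysaccharide-sensing caspase next to Casp1, was at 58.7 CPM in both activated libraries, against 20.8 CPM in resting A and 38.7 CPM in resting B. The activated libraries were both above the resting ones, which differed from each other by almost as much as resting B differed from the activated libraries. The group levels were 58.7 ± 0.0013 CPM in activated Treg and 29.8 ± 12.7 CPM in resting Treg (SD, n = 2 each). The log2 fold change was 0.98 ± 0.33 (SE; 95% interval 0.13 to 1.82), with an edgeR unadjusted p of 0.0310 and an adjusted p of 0.482. DESeq2 gave an adjusted p of 0.169. The value rests on the resting libraries: it was 0.59 without resting A and 1.48 without resting B. For every 100 Casp1 counts there were 78.3 and 90.1 Casp4 counts in the activated libraries, and 71.9 and 103.8 in the resting libraries, so the ratio of the neighbours overlapped between the groups. Casp12, the next caspase gene at this locus, 8646 bases beyond Casp4, was under 0.39 CPM in every library and was not tested.

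Pycard, the gene of the adaptor ASC, was at 114 CPM in activated A and 199 CPM in activated B, against 118 CPM in resting A and 239 CPM in resting B. It was the member that varied most within groups: 1 library of each group was well above the other, and the groups overlapped. The log2 fold change was -0.19 ± 0.43 (SE; 95% interval -1.30 to 0.91), with an edgeR adjusted p of 0.994. Its sign turned to 0.38 without resting B and to 0.16 without activated A. On the authors' regularized log2 scale the same pattern followed the replicate numbers, with 11.49 and 12.24 in activated replicates 1 and 2 and 11.55 and 12.50 in resting replicates 1 and 2. The libraries with less Pycard were those with more monocyte and macrophage transcripts, whose part in the Pycard values was not tested.

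Gsdmd, the gene of the pore former, was at 85.1 and 85.7 CPM in the activated libraries, against 67.6 and 81.8 CPM in the resting libraries. Both activated libraries were above both resting ones, but the step from resting B to the activated libraries was smaller than the step between the resting libraries. The log2 fold change was 0.19 ± 0.18 (SE; 95% interval -0.27 to 0.65), with an edgeR adjusted p of 0.938. It was 0.05 without resting A and 0.32 without resting B.

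Casp8, the initiator caspase of death receptors, was at 243 CPM in activated A and 177 CPM in activated B, against 347 CPM in resting A and 322 CPM in resting B. Both activated libraries were below both resting ones, and the activated libraries differed from each other more than the resting ones did. The group levels were 210.1 ± 46.7 CPM in activated Treg and 334 ± 17.7 CPM in resting Treg (SD, n = 2 each). The log2 fold change was -0.67 ± 0.22 (SE), a ratio of 0.629, with a 95% interval of -1.22 to -0.12. The edgeR unadjusted p was 0.0259 and the adjusted p 0.453, and DESeq2 gave an adjusted p of 0.164. Activated B was the lower of the activated libraries, and the log2 fold change was -0.46 without it and -0.91 without activated A.

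The balance of the inflammasome and death receptor proteases can be read within each library, where no scaling between libraries enters. For every 100 Casp8 counts there were 30.8 and 36.8 Casp1 counts in the activated libraries, against 8.33 and 11.6 in the resting libraries. For every 100 Casp8 counts there were 24.1 and 33.1 Casp4 counts in the activated libraries, against 5.99 and 12.04 in the resting libraries. Both ratios were higher in each activated library than in each resting one. The 2 ratios share Casp8 and were formed after the values were seen, so they carry no test.

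The other caspases of the set differed little. Casp9, the initiator on the apoptosome, was at 24.1 and 29.7 CPM in the activated libraries and at 23.5 and 25.3 CPM in the resting libraries. Its log2 fold change was 0.14 ± 0.22 (SE; 95% interval -0.41 to 0.69, edgeR adjusted p = 0.983) and turned to -0.024 without activated B. Casp2, the PIDDosome caspase, was at 123 and 145 CPM in the activated libraries and at 133 and 142 CPM in the resting libraries. Both activated values enclosed the resting ones. Its log2 fold change was -0.038 ± 0.18 (SE; 95% interval -0.49 to 0.42, edgeR adjusted p = 0.994) and turned to 0.088 without activated A. Casp6, an executioner, was at 56.8 and 66.8 CPM in the activated libraries, against 71.3 and 86.8 CPM in the resting libraries. The activated libraries were both lower, with a log2 fold change of -0.35 ± 0.20 (SE; 95% interval -0.86 to 0.15) and an edgeR adjusted p of 0.768. For Casp9 and Casp2 the intervals leave room for a difference of under 1 on the log2 scale in either direction, so these values do not show that the levels were equal.

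**Figure D2:**
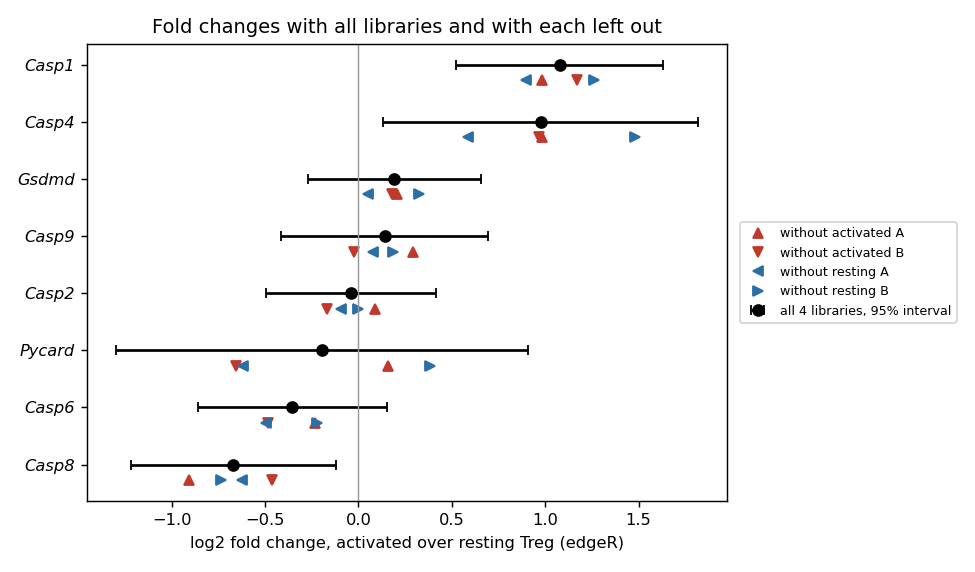
Log2 fold change of each gene, activated over resting Treg, from edgeR. Black points and bars are the estimate from all 4 libraries with its 95% interval, and triangles are the estimate with 1 library left out. Casp1 (0.90 to 1.26), Casp4 (0.59 to 1.48) and Casp8 (-0.91 to -0.46) keep their sign whichever library is left out, as do Gsdmd and Casp6, and Pycard, Casp9 and Casp2 cross 0.

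Levels of different genes were compared per length of annotated exon (RPKM, over the union of all GENCODE M21 exons). Casp8 had the highest level of the 8 in both groups, with 72.6 ± 16.2 RPKM in activated Treg and 115.5 ± 6.12 RPKM in resting Treg (SD, n = 2 each). In activated Treg the order then ran Casp1 (46.8 RPKM), Pycard (41.1), Gsdmd (35.9), Casp2 (19.0), Casp4 (15.8), Casp6 (11.1) and Casp9 (5.18). The libraries of Casp1 overlapped those of Pycard, and those of Pycard overlapped Gsdmd. The other neighbours in that order did not overlap. In resting Treg the order after Casp8 was Pycard (47.1 RPKM), Gsdmd (31.4), Casp1 (22.1), Casp2 (19.5), Casp6 (14.2), Casp4 (8.02) and Casp9 (4.69). Pycard overlapped Gsdmd and Casp1 overlapped Casp2, and the others did not overlap their neighbours. With the length of the longest principal transcript in place of all exons, Casp8 stayed the highest and Casp9 the lowest, but the order between them changed with the length used. Casp6 then stood at 42.5 RPKM in activated Treg and 54.3 RPKM in resting Treg, ranked 4 and 2, and Casp4 at 40.9 RPKM in activated Treg and 20.7 RPKM in resting Treg. Casp1 was ranked 3 in activated Treg and 6 in resting Treg.

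Of the 6 pathway lists described, the one of inflammasome sensors and helpers had the highest median difference. The lists were chosen with earlier results of these data known, so their counts and medians are descriptions. Of the 14 tested genes in the list of sensors and helpers, 6 were higher and 0 lower in activated Treg at an unadjusted edgeR p under 0.05, where 6.30% of all genes tested were higher and 2.61% were lower. None of the 14 passed after adjustment over all genes by edgeR. DESeq2 called 3 higher and 0 lower, where it called 2.32% higher and 0.845% lower over the genes with an adjusted p. The list's median log2 fold change of 0.76 stands beside -0.0072 over all genes tested. Naip5, which binds bacterial flagellin for the Nlrc4 inflammasome, was at 54.8 and 32.8 CPM in the activated libraries, against 5.97 and 7.17 CPM in the resting libraries. Its log2 fold change was 2.72 ± 0.33 (SE), with an edgeR adjusted p of 0.267 and a DESeq2 adjusted p of 1.83e-10. Naip6, the other flagellin receptor, was at 22.9 and 9.91 CPM in the activated libraries and at 3.59 and 4.08 CPM in the resting libraries (DESeq2 adjusted p = 0.00381). Naip2, a receptor for rod proteins of bacterial secretion systems, was at 35.2 and 32.2 CPM in the activated libraries, against 9.42 and 16.3 CPM in the resting libraries (DESeq2 adjusted p = 0.0106). In each of these 3 genes both activated libraries were above both resting ones. The Naip genes are close relatives on chromosome 13, so reads may be split among them, and these values are uncertain.

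Nlrc4, the partner that Naip proteins activate, had 128 and 85 counts in the activated libraries and 39 and 30 counts in the resting libraries, a log2 fold change of 1.502 ± 0.49 (SE). Nlrp1b, the sensor of anthrax lethal toxin, was at 13.8 and 8.82 CPM in the activated libraries, against 6.12 and 3.85 CPM in the resting libraries. P2rx7, the receptor for extracellular ATP that can trigger the Nlrp3 inflammasome, was at 192.5 and 157 CPM in the activated libraries, against 131 and 113 CPM in the resting libraries. These 3 were past an unadjusted edgeR p of 0.05 and were not called by DESeq2. Nek7, a helper of Nlrp3 and with P2rx7 the most abundant of the list per length, had a log2 fold change of 0.0008 ± 0.26 (SE). Nlrp3 itself, named after its values were seen, had 43 and 3 counts in the activated libraries and 2 in each resting library, too few to be tested.

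Dendritic cell markers were also higher in both activated libraries, and activated A held 3.27 times the conventional and 2.70 times the plasmacytoid marker sum of activated B. Over the same 2 libraries the ratio of A to B was 1.15 for Casp1, 1.37 for Casp8, 1.67 for Naip5, 2.31 for Naip6, 1.09 for Naip2, 1.56 for Nlrp1b and 0.998 for Nlrc4. Without activated A the log2 fold change was 0.98 for Casp1 and 0.98 for Casp4, and the sensor list had 3 genes higher and 0 lower past an unadjusted p of 0.05: Naip5 at 2.31, Naip6 at 1.36 and Naip2 at 1.32. In that fit 7.38% of all genes tested were higher and 4.72% lower at the same p. Without resting B the sensor list also had 3 higher and 0 lower, where 6.69% of all genes tested were higher and 1.70% lower. The part of dendritic cell transcripts in these differences was not tested.

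**Figure D3:**
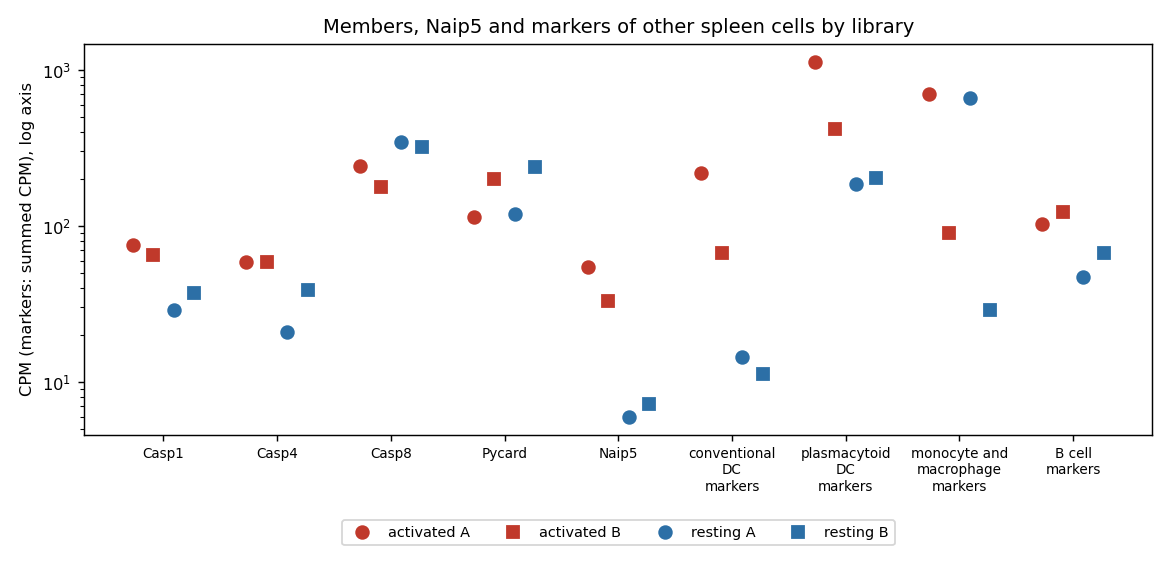
TMM-scaled CPM on a log axis for 4 of the genes, for Naip5 and for summed markers of other spleen cells. Red is activated and blue is resting Treg, circles are libraries A and squares are libraries B. Dendritic cell markers are highest in activated A, macrophage markers are high in library A of both groups, and Casp1 and Casp4 are nearly level between the activated libraries.

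Among substrates and executors around gasdermin D, 0 of 6 tested genes were past an unadjusted edgeR p of 0.05, where 8.91% of all genes tested were. With so few genes, a count of 0 is near that share. DESeq2 called 0, and the median log2 fold change was 0.16. Irf2, a transcription factor known to drive Gsdmd, was at 228 and 245 CPM in the activated libraries and at 254 and 246.5 CPM in the resting libraries. Ninj1, which ruptures the membrane after pore formation, was at 21.96 and 28.8 CPM in the activated libraries and at 21.8 and 20.8 CPM in the resting libraries. Il1b, a substrate of caspase-1 and named after its values were seen, had 97 and 14 counts in the activated libraries and 10 and 0 in the resting libraries, so most of its reads came from activated A.

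On the death receptor side, 1 of 14 tested genes was past an unadjusted edgeR p of 0.05, a share near the 8.91% of all genes tested, with 0 called by DESeq2 and a median log2 fold change of 0.15. That gene was Fas, the receptor upstream of Casp8, at 108 and 95.5 CPM in the activated libraries, against 146 and 148 CPM in the resting libraries. Its log2 fold change was -0.53 ± 0.17 (SE), with an edgeR adjusted p of 0.444 and a DESeq2 adjusted p of 0.206, and both activated libraries were below both resting ones. Ripk3, the necroptosis kinase that caspase-8 holds in check, was at 83.5 and 127 CPM in the activated libraries and at 78.7 and 121 CPM in the resting libraries. As for Pycard, 1 library of each group was well above the other. Cflar, the neighbour and regulator of Casp8, was at 169 and 120 CPM in the activated libraries and at 206 and 148 CPM in the resting libraries, with overlapping groups.

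In the lists of the apoptosome and PIDDosome and of caspase targets, 0 of 9 and 0 of 8 tested genes were past an unadjusted edgeR p of 0.05. With so few genes, these counts are near the 8.91% over all genes tested. The median log2 fold changes were 0.09 and -0.033. DESeq2 called 0 in both. Bid, which links caspase-8 to mitochondria, had a log2 fold change of 0.28 ± 0.21 (SE), and Cycs, the gene of cytochrome c, one of -0.155 ± 0.26. Parp1 and Pak2, both cut by caspases in dying cells, had log2 fold changes of 0.11 ± 0.17 and -0.30 ± 0.17. Among 8 tested caspase inhibitors, 1 was past an unadjusted edgeR p of 0.05, which is near the 8.91% over all genes tested. It was Serpinb1a, a serpin reported to restrain caspase-1, at 21.7 and 19.0 CPM in the activated libraries, against 3.79 and 8.18 CPM in the resting libraries. Its log2 fold change was 1.75 ± 0.43 (SE), with an edgeR adjusted p of 0.357 and a DESeq2 adjusted p of 0.00968, and both activated libraries were above both resting ones. The inhibitors Birc3 and Birc2, the most abundant of the list per length, had log2 fold changes of -0.23 ± 0.17 and 0.041 ± 0.28.

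**Figure D4:**
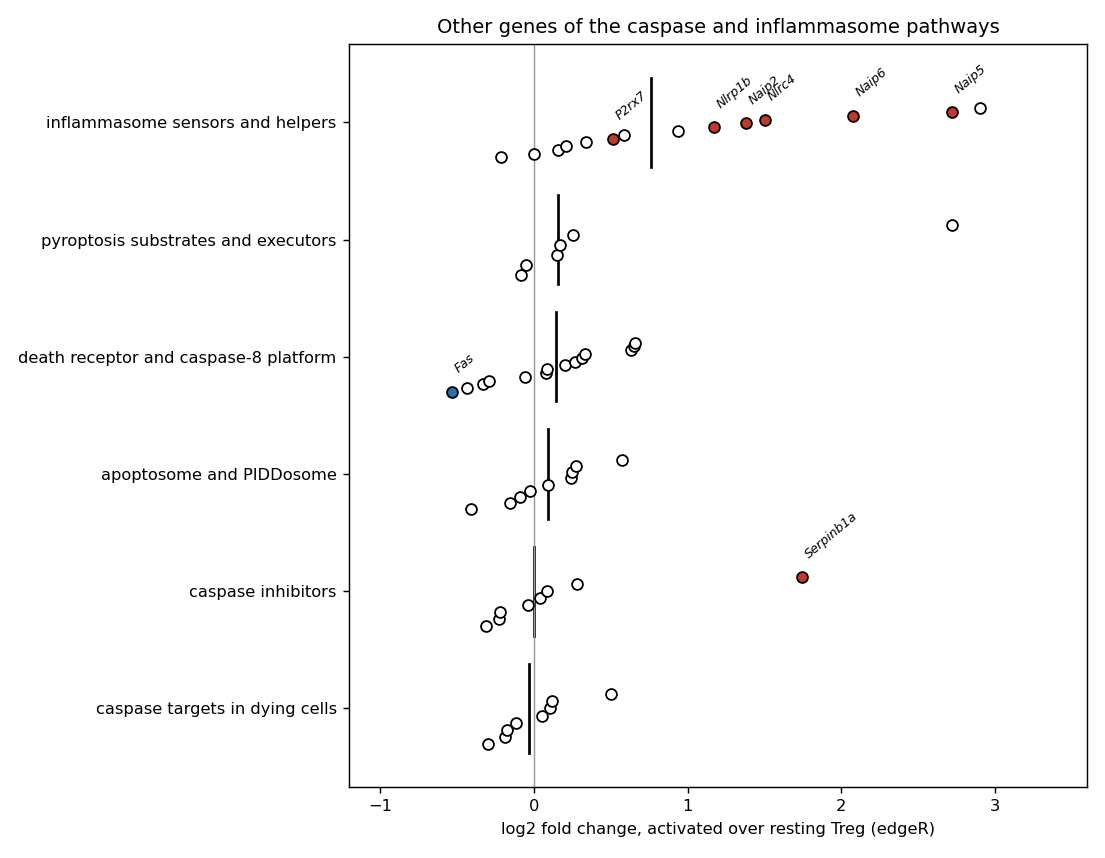
Log2 fold change, activated over resting Treg, for the tested genes of 6 pathway lists. Each circle is a gene, filled and named where its unadjusted edgeR p was under 0.05, and the vertical stroke is the list's median. The sensor list has a median of 0.76 and holds 6 of the 8 filled genes, and the other medians lie between -0.033 and 0.16. The lists were chosen with earlier results of these data known.

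The genes with the pattern most like Casp1 were found by the root mean square difference of log2 CPM deviations over the 4 libraries, among all genes tested. The nearest 5 were D930020B18Rik, Il10ra, Hddc3, Plxnb1 and Gm2619, with differences between 0.0645 and 0.0929. D930020B18Rik was at 1.08 and 0.887 CPM in the activated libraries and at 0.388 and 0.457 CPM in the resting libraries. Gm2619 was at 0.588 and 0.444 CPM in the activated libraries and at 0.194 and 0.228 CPM in the resting libraries. For both genes the match rests on few reads. Il10ra, a receptor chain for interleukin-10, was at 137 and 136 CPM in the activated libraries, against 58.1 and 74.0 CPM in the resting libraries. Casp4, with a difference of 0.201, was ranked 132 among the genes nearest to Casp1, and the next member, Gsdmd, was ranked 1677 at 0.452. The measure rests on 4 libraries, and the ranking is a description.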

How the data were processed

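Low-input libraries (SMART-seq v4) from 4 Treg samples were analysed. The deposited raw counts and the authors' DESeq2 regularized log2 values cover the same genes. The names mm10, STAR 2.4.0c, featureCounts and DESeq2 stand, with no roles given, in the submitters' processing notes. The sources used here do not give the annotation, strand setting or read filters. Symbols, exon lengths and positions came from GENCODE M21, matching 37607 of 38924 identifiers. Of the 8 members, Casp9 shares 94 exonic bases with Cela2a and Ctrc on the other strand, each at 4 counts or fewer. Pycard shares 485 exonic bases with Gm45205, also on the other strand. Gm45205 has no entry in the count table, so any reads it adds to Pycard are not known.

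Counts were filtered with filterByExpr (minimum count 10, minimum total 15) and tested by the quasi-likelihood method of edgeR 4.0.16 under R 4.3.3, with group as the one term and a prior count of 2. SE was taken as the size of the log2 change divided by the root of F, and intervals use the t distribution with prior and residual degrees of freedom. DESeq2 1.42.0 and limma 3.58.1 were run beside it. An exact two-sided permutation test of 2 against 2 cannot go below p = 0.333 and was not used. P-values set the group difference against the spread between these samples, moderated across genes, and PCR reads are not independent molecules. The fits were tested on simulated counts drawn at the means, library sizes and trended spread of these data. The simulation held no replicate differences shared between the groups, so it does not show how the fits perform with them. Library letters follow column order. Members and lists were chosen with earlier results of these data known. Named genes were all members, list genes with unadjusted p under 0.05, the 2 most abundant per list, the 5 nearest to Casp1 and the sort markers. Some of these genes are not reported here.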

Additional observations from a re-analysis of the deposited data

How the results depend on the processing

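Over all genes, edgeR called 0 (1268 at an unadjusted p under 0.05), limma-voom and limma on the regularized log2 values called 0, DESeq2 called 442, edgeR without the low-count filter called 852, and leaving out 1 library gave 0 to 370 calls (62 when activated B was dropped and 0 when activated A was, 370 when resting A was and 198 when resting B was). Of 80 values of the 8 members under alternatives, 76 kept their direction. Casp1 passed by DESeq2 (1.08), and Casp1 (1.04) and Casp4 (0.94) passed without the low-count filter; no member passed by edgeR with any 1 library left out. The exceptions in direction were Pycard (0.38 without resting B, 0.16 without activated A), Casp2 (0.088 without activated A) and Casp9 (-0.024 without activated B). Leaving out 1 library gave 0.90 to 1.26 for Casp1, 0.59 to 1.48 for Casp4, -0.66 to 0.38 for Pycard, 0.05 to 0.32 for Gsdmd, -0.91 to -0.46 for Casp8, -0.024 to 0.29 for Casp9, -0.17 to 0.088 for Casp2 and -0.50 to -0.22 for Casp6. It gave 3 to 6 of 14 sensor genes and 5 to 10 of 61 pathway genes past an unadjusted p of 0.05. In these fits 6.65% to 12.1% of all genes tested were past it. The 5 came without activated A, where the share of all genes was 12.1%, and the 10 without resting A, where it was 7.77%. Each fit left 1 library in a group, so these counts decide nothing about the lists. The counts and the per-length ranks of Casp1 (3 in activated and 6 in resting Treg with principal transcripts) were chosen as checks after seeing the data. The cause was not tested.

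The replicate numbers of the regularized log2 table were used as a replicate block in limma. In that fit 1552 of the 14235 genes tested were called, Casp1 (0.98), Casp4 (0.94) and Casp8 (-0.65) among them. Of 61 pathway genes, 21 were past an unadjusted p of 0.05 in the blocked fit, as were 23.0% of all genes tested. By edgeR without the block, 8.91% of all genes tested were. Differences between replicates 1 and 2 correlated with r = 0.65 between activated and resting Treg across the genes tested. The labels describe independent animals and give no link between samples of the same number beyond that number. What lies behind the correlation was not tested. The smallest count of a member was 428, and the effect of depth on the calls was not tested.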
